A study of Mus musculus with 7 samples.

Results

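The proteasome genes of the mouse were described here through the open chromatin at their starts in HPC7, a hematopoietic progenitor cell line. Members were the protein-coding genes of the GENCODE M21 annotation whose symbol begins with Psma, Psmb, Psmc, Psmd, Psme, Psmf or Psmg followed by a number. This rule took 50 of 21938 protein-coding genes. They comprised 14 constitutive subunits of the 20S core, 6 ATPases and 11 other subunits of the 19S regulatory particle, 3 immunoproteasome subunits, 2 thymus or testis forms, 6 activator and inhibitor genes, and 3 and 4 assembly chaperones of the 19S and 20S particles. The last member, Psmc3ip, carries the symbol but encodes a meiotic recombination factor and is no proteasome subunit.

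The study developed a way to multiplex single-nucleus ATAC-seq, an assay in which a transposase cuts accessible DNA, and profiled HPC7 by bulk ATAC-seq as a reference. The data are the open chromatin regions (OCRs, called as peaks) of 7 libraries, HPC7-1, HPC7-2 and HPC7-4 to HPC7-8, each from its own culture batch, and the labels name 1 group. The cells were grown in Iscove's medium with mouse stem cell factor and calf serum, and no treatment is named in the labels. The p-values below measure the spread between these cultures of 1 line. The value used for a gene was the highest fold enrichment, the ratio of the pile of reads at the OCR's summit to the background of the library, of any OCR overlapping the 1 kb on either side of the start of the gene record. Because libraries differed in scale, each value was also given as its percentile among all OCRs of the same library, and a gene without an OCR was set to 0.

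The libraries held 84593 to 132852 OCRs, with a median fold enrichment of 5.01 to 7.83 and a median width of 407 to 452 bp. The fold enrichments of a library were multiples of the same step, to within 0.00113 of a whole number, which gave 103 to 4103 reads at the summits of members with an OCR in every library. The peak names carried the prefix VD in 3 libraries and EtOH in 4, which the labels do not explain, and the prefixes were not used as conditions. Of 8 markers of hematopoietic progenitors, 7 had an OCR at the gene start in every library, against 51.6% of all protein-coding genes. The other, the progenitor transcription factor gene Gata2, had one at another of its starts. At the gene start, none of 5 T cell, 4 B cell and 4 testis germ cell markers had an OCR in every library, although Lck of the T cell list had one in 4 libraries. At another start, Lck (mean fold enrichment of 32.3) and the germ cell gene Stra8 (11.3) had an OCR in all 7 libraries, and the germ cell gene Dazl in 2. Among 4 markers of thymic epithelium, the chemokine gene Ccl25 had one in every library, at a fold enrichment of 191 ± 35.8 (SD, n = 7).

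The proteasome degrades proteins tagged with ubiquitin. Its barrel-shaped 20S core is built from stacked rings of alpha and beta subunits, and the beta1, beta2 and beta5 subunits (Psmb6, Psmb7 and Psmb5) carry the proteolytic sites inside the barrel. The 19S particle caps the core, recognises ubiquitin chains and uses the ATPases of the Psmc genes to unfold substrates. In immune cells and after interferon-gamma, Psmb9, Psmb10 and Psmb8 take the place of beta1, beta2 and beta5, forming the immunoproteasome, which makes peptides suited to MHC class I molecules. Psmb11 replaces beta5 in the thymic cortex epithelium, and Psma8 replaces the alpha4 subunit Psma7 in male germ cells. Psme1 and Psme2 encode the subunits of the interferon-inducible cap PA28, and Psme3 and Psme4 encode the nuclear caps PA28gamma and PA200.

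The promoter sequences of the catalytic subunits are shown because the comparisons below set these genes against each other. They are RefSeq sequences of GRCm38.p6, the assembly that the labels name mm10, from 250 bases before to 50 after the RefSeq start, written 5′ to 3′ on the strand of the gene. Psmb6 lies at chr11:70525107-70525406 on the plus strand, Psmb9 at chr17:34187281-34187580 on the minus strand, and Psmb10 at chr8:105938343-105938642 on the minus strand. Psmb5 lies at chr14:54617946-54618245 on the minus strand, Psmb8 at chr17:34197945-34198244 on the plus strand, and Psmb11 at chr14:54625060-54625359 on the plus strand. RefSeq starts can differ from the starts of the GENCODE gene records used for the OCRs, as at Psmb8, Psmb9 and Psmb11. Capitals mark matches, on either strand, to the motif letters spelled out in the account of the promoter sequences.
Psmb6: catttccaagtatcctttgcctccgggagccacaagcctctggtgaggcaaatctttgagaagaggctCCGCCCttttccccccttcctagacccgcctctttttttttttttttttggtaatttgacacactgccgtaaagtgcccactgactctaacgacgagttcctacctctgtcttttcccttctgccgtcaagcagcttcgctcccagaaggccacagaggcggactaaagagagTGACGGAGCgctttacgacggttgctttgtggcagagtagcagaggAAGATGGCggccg
Psmb9: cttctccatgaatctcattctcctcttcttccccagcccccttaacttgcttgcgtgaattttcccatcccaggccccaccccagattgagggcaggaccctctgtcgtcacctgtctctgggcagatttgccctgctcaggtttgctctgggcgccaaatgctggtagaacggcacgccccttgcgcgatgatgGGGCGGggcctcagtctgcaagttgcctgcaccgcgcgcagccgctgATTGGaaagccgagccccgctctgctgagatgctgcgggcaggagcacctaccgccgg
Psmb10: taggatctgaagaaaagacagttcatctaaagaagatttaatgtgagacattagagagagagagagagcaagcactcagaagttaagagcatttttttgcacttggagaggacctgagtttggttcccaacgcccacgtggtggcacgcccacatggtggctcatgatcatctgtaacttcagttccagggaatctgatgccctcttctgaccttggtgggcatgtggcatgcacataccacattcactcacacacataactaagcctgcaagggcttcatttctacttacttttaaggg
Psmb5: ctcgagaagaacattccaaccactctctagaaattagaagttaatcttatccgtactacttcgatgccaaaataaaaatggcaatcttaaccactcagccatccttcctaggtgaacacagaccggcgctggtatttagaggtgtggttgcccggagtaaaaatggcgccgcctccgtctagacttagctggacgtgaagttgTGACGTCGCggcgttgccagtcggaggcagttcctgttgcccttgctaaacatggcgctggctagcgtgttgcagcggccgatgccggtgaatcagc
Psmb8: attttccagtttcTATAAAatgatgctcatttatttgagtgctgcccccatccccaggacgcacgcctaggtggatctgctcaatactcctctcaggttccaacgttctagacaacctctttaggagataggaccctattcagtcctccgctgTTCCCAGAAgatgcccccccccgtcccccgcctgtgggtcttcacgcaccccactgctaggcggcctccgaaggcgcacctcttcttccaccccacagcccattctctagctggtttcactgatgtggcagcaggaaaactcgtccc
Psmb11: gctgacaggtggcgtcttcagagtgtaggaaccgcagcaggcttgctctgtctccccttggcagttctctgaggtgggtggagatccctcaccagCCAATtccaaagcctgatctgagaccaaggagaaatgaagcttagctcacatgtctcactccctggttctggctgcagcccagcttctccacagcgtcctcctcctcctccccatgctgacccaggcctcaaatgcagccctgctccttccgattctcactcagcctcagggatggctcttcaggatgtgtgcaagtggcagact

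Most proteasome genes lay in open chromatin. An OCR was present at the start of the gene record in all 7 libraries for 43 of 50 members, against 51.6% of all protein-coding genes. A further member, Psma6, had one in 3 libraries, and Psmd5, Psmd9, Psmf1, Psma8, Psmb11 and Psme2b had none. When any annotated transcript start was allowed, 47 of 50 members had an OCR in every library, against 55.9% of all protein-coding genes, and the exceptions were Psma8, Psmb11 and Psme2b. The mean percentile was at least 90 for 36 of 50 members, against 35.1% of all protein-coding genes.

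**Figure D1:**
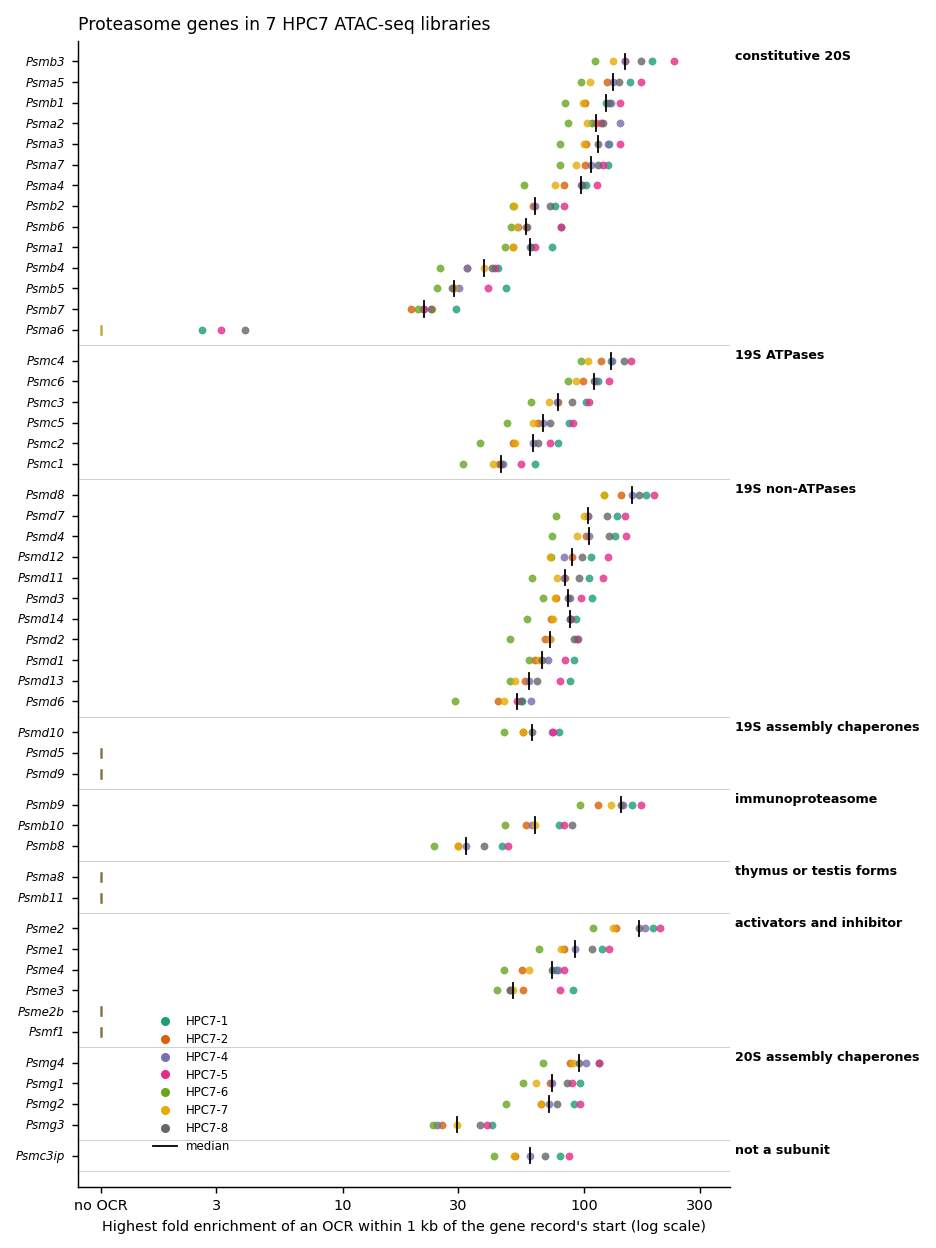
Highest fold enrichment (log axis) of an OCR within 1 kb of the gene record's start for each of the 50 genes, grouped by role and ordered by mean, with 1 point per library and a bar at the median. Ticks at the left mark libraries with no OCR; 43 genes have a point in all 7 libraries, Psma6 in 3, and 6 genes in none.

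The median height of the OCRs was close to that of all open promoters. Among genes with an OCR in all libraries, the median of the mean percentile was 93.1 for the 43 members and 93.5 for 11327 protein-coding genes. The ratio of the members' median fold enrichment to that of all such promoters was 0.986 ± 0.0257 (SD, n = 7 libraries), between 0.935 and 1.01. The quartiles lay at 91.0 and 96.2 for the members, whose lowest was 80.2, and at 88.2 and 97.1 for all such genes.

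**Figure D2:**
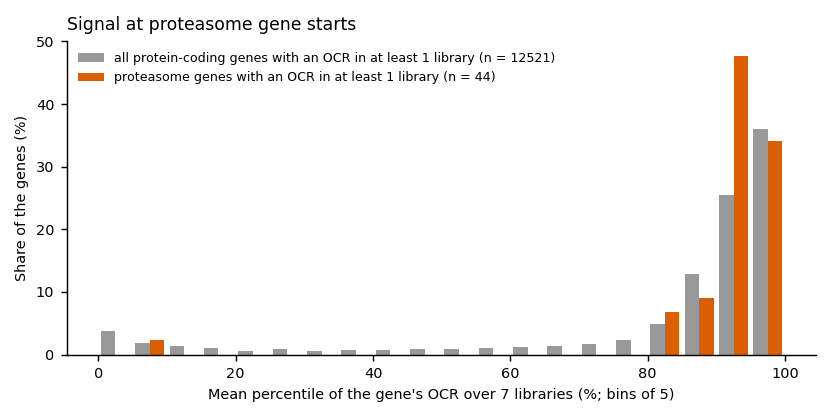
Share of genes (vertical axis, %) by the mean percentile of their OCR over 7 libraries (horizontal axis, bins of 5), for the 44 proteasome genes and the 12521 protein-coding genes with an OCR in at least 1 library. Both distributions peak above the 90th percentile, and the only proteasome gene below 80 is Psma6.

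The summit lay within 250 bp of the gene start for 39 of 43 members (90.7%), against 74.8% of all genes with an OCR in every library. The median width of the OCR was 1493 bp for members and 1697 bp for all such genes. A start of another protein-coding gene lay within 1 kb on the other strand for 12 of 50 members, against 10.9% of all protein-coding genes. These include the bidirectional neighbours Psmc2 and Dnajc2, 32 bp apart, Psma2 and Mrpl32, 75 bp apart, and Psmb1 and Tbp, 137 bp apart. Where 1 OCR covers both starts, its signal cannot be assigned to either gene. Of the 12 members, 11 had an OCR in all libraries at the gene start and Psmd5, next to Cutal, had none there. Among genes with an OCR in all libraries, such a neighbour was present for 25.6% of members and 19.3% of protein-coding genes.

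The coefficient of variation of a member's fold enrichment over the 7 libraries was 13.5% to 29.4%, with a median of 20.7%. HPC7-6 gave the lowest value of 41 of 43 members and of 93.2% of all promoters. HPC7-5 gave the highest value of 23 members and HPC7-1 of 17, against 42.3% and 29.3% of all promoters. HPC7-4 gave the highest value of 2 members and HPC7-8 of 1, against 12.1% and 15.5% of all promoters.

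The constitutive subunits were open throughout. Of 31 constitutive genes, 30 had an OCR at the gene start in every library, against 51.6% of all protein-coding genes. At some transcript start, 31 had one, against 55.9% of all protein-coding genes. The median percentile of the constitutive genes was 93.8 ± 1.00 (SD, n = 7), against 52.1 ± 8.81 over all protein-coding genes with those lacking an OCR at 0. Among genes with an OCR in all libraries, it was 93.9 ± 0.953 for constitutive and 93.5 ± 1.02 for all protein-coding genes. With every gene of a class counted, the median percentile was 93.0 ± 1.07 for the 20S core, 93.0 ± 1.11 for the 19S ATPases and 93.9 ± 1.03 for the other 19S subunits. These medians lie within 1 SD of each other at the gene starts. With any transcript start, where Psma6 also has an OCR in every library, the median of the 20S core was 95.1 ± 0.709. Those of the ATPases and the other 19S subunits stayed at 93.0 ± 1.11 and 93.9 ± 1.03. Both lay more than 1 SD below that of the 20S core, and the differences were not tested.

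The 5 highest constitutive genes at the gene starts were Psmb3, Psmd8, Psma5, Psmc4 and Psmb1. Psmb3, a structural beta subunit without a proteolytic site, had fold enrichments from 111 to 236 with a median of 148 (162 ± 41.3, SD, n = 7). Psmd8 of the 19S lid ranged from 121 to 195 with a median of 157, and Psma5 of the alpha ring from 96.5 to 171 with a median of 132. The ATPase gene Psmc4 ranged from 96.8 to 156 with a median of 129, and the beta subunit gene Psmb1 from 82.8 to 141 with a median of 123. The ranges of these 5 genes overlap. In some libraries the summit of Psmb1 lay up to 1522 bp inside the gene.

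The lowest constitutive genes with an OCR in every library included both catalytic genes Psmb7 and Psmb5. Psmb7, the beta2 subunit, ranged from 19.1 to 29.5 with a median of 21.8 (22.7 ± 3.34, SD, n = 7), and its mean percentile was 80.2. Psmb5, the beta5 subunit, ranged from 24.6 to 47.2 with a median of 28.8 (32.6 ± 7.96) and a mean percentile of 84.5. The beta subunit gene Psmb4 ranged from 25.3 to 44.0 with a median of 38.4, and the ATPase gene Psmc1 from 31.4 to 62.6 with a median of 45.0. The highest value of Psmb7 fell below the lowest of Psmb6, which ranged from 49.9 to 80.4 with a median of 57.1 (61.6 ± 13.1). All 3 constitutive catalytic genes lay below the median of the constitutive genes.

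Psma6, Psmd5, Psmd9 and Psmf1 were open at another of their annotated starts. Psma6, an alpha ring subunit, had fold enrichments of 2.62 in HPC7-1, 3.13 in HPC7-5 and 3.93 in HPC7-8 at the start of its record and no OCR there in the others. At a transcript start 14.6 kb downstream its value was 168 ± 32.3 (SD, n = 7), above the mean of every member at the gene start. The 19S chaperone gene Psmd5 reached 110 ± 23.7 at a start 4.04 kb downstream, and the chaperone gene Psmd9 reached 24.9 ± 7.13 at a start 58.8 kb downstream. The inhibitor gene Psmf1, which encodes PI31, reached 40.1 ± 5.03 at a start 2.89 kb downstream. For these genes the record's start is that of the outermost annotated transcript, and the choice of start or window decided whether an OCR was found. With a window of 3 kb around the same gene starts, Psma6, Psmd9 and Psmf1 had an OCR in every library and Psmd5 still did not.

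All 3 immunoproteasome genes had an OCR in every library, against 51.6% of all protein-coding genes. The median percentile of these 3 genes was 91.9 ± 1.77 (SD, n = 7). Psmb9 ranged from 96.1 to 171 with a median of 142 (137 ± 25.7), Psmb10 from 46.8 to 89.0 with a median of 62.8 (68.2 ± 15.4), and Psmb8 from 23.8 to 48.2 with a median of 32.5 (35.5 ± 8.91). Every value of Psmb9 lay above every value of Psmb10, and Psmb8 was the lowest of the 3 in each library.

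Set against the subunits they replace, Psmb9 and Psmb10 had the higher signal, while the difference between Psmb5 and Psmb8 did not pass the test. Psmb9 exceeded Psmb6 in 7 of 7 libraries, by a fold enrichment ratio of 2.24 ± 0.312 (SD) between 1.92 and 2.73, and the percentile of Psmb6 minus that of Psmb9 was -6.79 ± 1.20 (p = 0.0156 by a two-sided exact permutation test that flips signs within libraries, adjusted p = 0.0182). Psmb10 exceeded Psmb7 in 7 of 7 libraries by a ratio of 3.01 ± 0.607, with a percentile difference of -11.7 ± 2.74 (exact permutation test, adjusted p = 0.0182). For Psmb5 minus Psmb8 the difference was -0.908 ± 1.35, between -3.40 and 0.405, with Psmb8 higher in 5 of 7 libraries (exact permutation test, p = 0.0938, adjusted p = 0.0938). Adjusted values are over the 7 pairs; over the 5 pairs in which both genes had an OCR, the passing ones had an adjusted p of 0.0195 by the same exact permutation test. The value of 0.0156 is the smallest p that 7 libraries allow. The differences of Psmb9 and Psmb10 held in all 3 VD and all 4 EtOH libraries.

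The position of the summits limits these comparisons. The OCR at Psmb10 covered its start, but its summit lay 1275 to 1415 bp inside the gene (chr8:105936399-105938908, minus strand, start at 105938444). When the summit itself had to lie within 1 kb of the start, Psmb10 counted as having none, and Psmb7 minus Psmb10 turned to 80.2. With a window of 3 kb the difference was -7.05 ± 1.13 (SD, n = 7).

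Psmb9 and Psmb8 lie in the MHC class II region of chromosome 17 together with Tap1 and Tap2, which encode the peptide transporter of antigen presentation. The starts of Psmb9 and Tap1 are 211 bp apart on opposite strands and share 1 OCR (chr17:34185986-34188744), so both genes have the same value of 137 ± 25.7. Its summit lay 217 to 282 bp downstream of the Psmb9 record's start. The start of Psmb8 lies 9.96 kb away, and its OCR (chr17:34196329-34198987) had its summit between 76 bp upstream and 30 bp downstream of that start. In HPC7-1 and HPC7-7 this OCR was joined with a smaller one upstream. Tap2 had a fold enrichment of 50.6 ± 9.74 at its start.

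**Figure D3:**
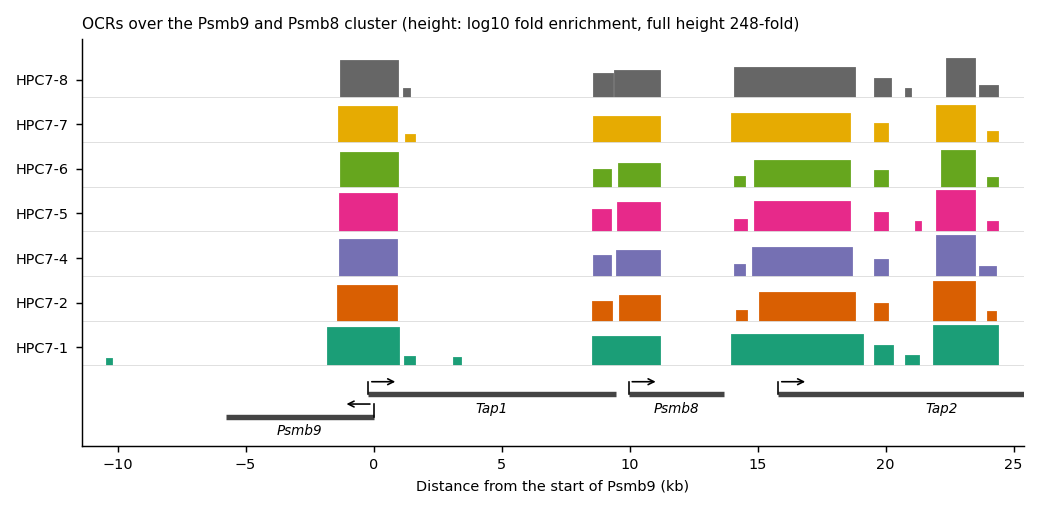
OCRs of the 7 libraries over Psmb9, Tap1, Psmb8 and Tap2, by distance in kb from the Psmb9 start; block height is the log10 of the fold enrichment, scaled to 248-fold, and arrows mark starts and direction of transcription. Every library has an OCR over the Psmb9 and Tap1 starts and another over the Psmb8 start, with few OCRs between them.

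The thymus and testis forms had no OCR at any annotated start. Psmb5 exceeded Psmb11, which was at 0 in every library, by 84.5 ± 2.49 percentile points, and Psma7 exceeded Psma8, also at 0, by 96.0 ± 0.641 (SD, n = 7). These differences are the percentiles of Psmb5 and Psma7 themselves, and since a test against a constant 0 could only return its smallest p, none is given. Psma7, the alpha4 subunit, ranged from 79.2 to 125 with a median of 107 (105 ± 16.0, SD, n = 7). The nearest OCR to the start of Psma8 was 20.7 to 20.8 kb upstream, and no library had an OCR within the gene. Near Psmb11 the nearest OCR was 1.30 to 2.90 kb from the start, and 6 libraries had an OCR within the gene. The starts of Psmb5 and Psmb11 are 3.41 kb apart, and with a window of 3 kb both took the same OCR and the difference became 0.

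**Figure D4:**
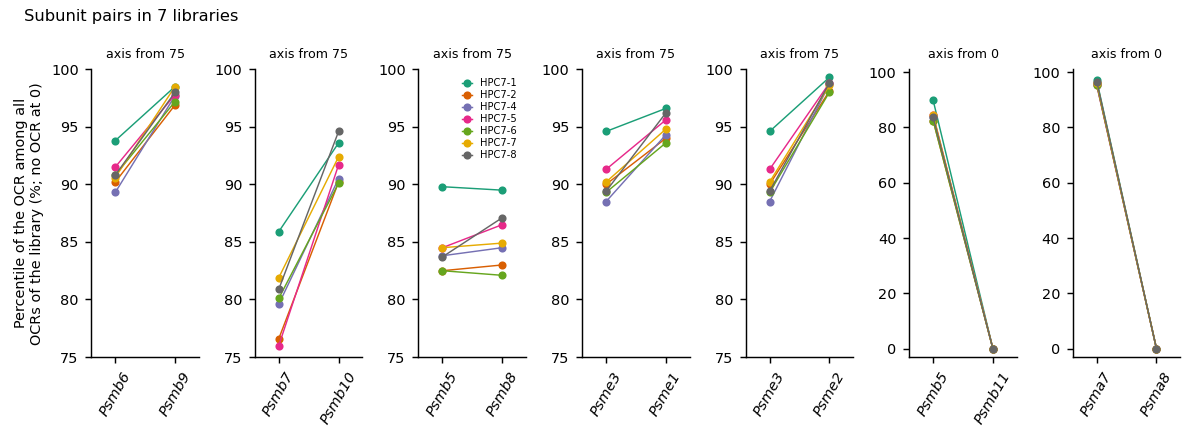
Percentile of the OCR at the gene start among all OCRs of the library (vertical axis, %) for the 7 pairs, with 1 line per library; the first 5 panels start at 75 and the last 2 at 0. The lines rise in every library from Psmb6 to Psmb9, Psmb7 to Psmb10 and Psme3 to Psme1 and Psme2, run in both directions from Psmb5 to Psmb8, and fall to 0 at Psmb11 and Psma8.

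Both genes of the interferon-inducible cap were higher than Psme3. Psme2 ranged from 109 to 206 with a median of 168 (160 ± 35.5, SD, n = 7), Psme1 from 64.9 to 126 with a median of 91.4 (95.8 ± 22.2), and Psme3 from 43.6 to 89.6 with a median of 50.5 (59.6 ± 17.5). Psme4 ranged from 46.5 to 82.6 with a median of 73.7 (67.2 ± 13.6). Psme1 exceeded Psme3 in 7 of 7 libraries by a ratio of 1.64 ± 0.293, and Psme3 minus Psme1 was -4.54 ± 1.48 percentile points (exact permutation test, adjusted p = 0.0182). Psme2 exceeded Psme3 in 7 of 7 libraries by a ratio of 2.76 ± 0.549, and Psme3 minus Psme2 was -8.14 ± 1.76 (exact permutation test, adjusted p = 0.0182). The summit of Psme2's OCR had a median offset of -547 bp, where negative is upstream of the start, and the start of Rnf31, a ubiquitin ligase gene on the other strand, is 595 bp away. The signal of Psme2 and Rnf31 could not be told apart.

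Psme2b, a close copy of Psme2 on chromosome 11, had no OCR within the gene, and the nearest was 12.4 to 22.1 kb away. Reads that fit both copies cannot be assigned to either, and the mapping filter is not given in the sources used here. The 4 chaperone genes of the 20S core, Psmg1 to Psmg4, all had an OCR in every library, against 51.6% of all protein-coding genes. The median percentile of these 4 genes was 92.8 ± 1.24 (SD, n = 7). Psmc3ip ranged from 42.4 to 86.5 with a median of 59.4 (62.7 ± 16.0).

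OCRs were also counted inside the genes. An OCR found in all libraries, inside the gene and more than 1 kb from every annotated transcript start, was present in 17 of 50 members, against 40.6% of all protein-coding genes, which is near the background. The median gene length was 11.6 kb for members and 17.4 kb for all protein-coding genes. These members held 24 such OCRs with a median fold enrichment of 9.16. The strongest, in Psma6 (chr12:55387034-55390604), reached 47.4 ± 10.0 (SD, n = 7). An OCR within an intron of Psmb7, 27.5 kb from its start (chr2:38615817-38617306), reached 40.6 ± 7.56 and ranged from 26.6 to 49.1. Its mean was above the 22.7 ± 3.34 of the Psmb7 start.

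The promoter sequences differed in CpG content. Of 50 members, 42 had a sequence in the RefSeq table; Psma8, Psmb1, Psmb2, Psmb7, Psmc3, Psmd3, Psmd7 and Psmg2 had none. The ratio of observed to expected CpG had a median of 0.749 over members and 0.598 over 16522 protein-coding promoters. The 300-base window overlapped an OCR of all 7 libraries for 39 of 42 members, against 51.3% of all promoters. Among members with a ratio of at least 0.3, this held for 38 of 38, against 69.1% of all such promoters. Among those under 0.3 it held for 1 of 4, against 10.6% of all such promoters.

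The 4 CpG-poor members were Psme2b at 0.0904, Psmb11 at 0.165, Psma6 at 0.185 and Psmb10 at 0.192. Psme2b and Psmb11 had no OCR at any start, and the window of Psma6 is at the start with an OCR in 3 libraries. The window of Psmb10 overlapped an OCR whose summit was more than 1 kb away. The CpG ratio was 0.999 for Psmb5 and 0.523 for Psmb8. Whether CpG content goes with the height of the signal was not tested.

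**Figure D5:**
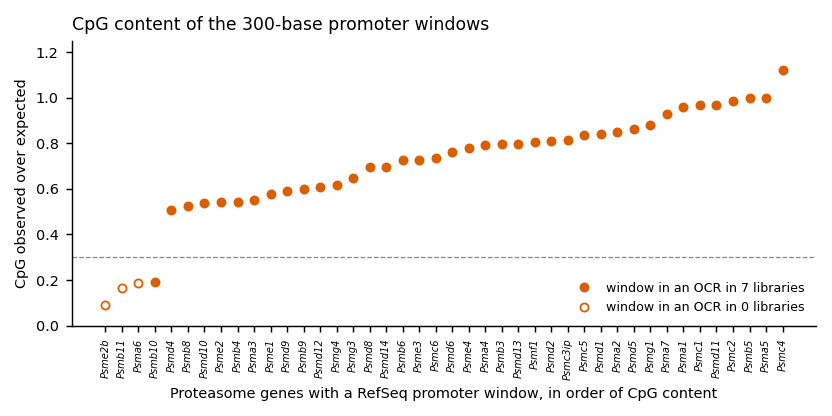
Observed over expected CpG (vertical axis) of the 300-base promoter windows of 42 proteasome genes in ascending order. Filled points are windows overlapping an OCR in all 7 libraries and open points windows in none; the 3 open points are below the dashed line at 0.3, and the only filled point below it is Psmb10.

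The promoters were searched on both strands for 9 motifs, and positions are counted from the RefSeq start. The ETS letters CCGGAAG were in 14 of 42 member promoters (33.3%), against 12.3% of all promoters, and Psmc1, Psmc2, Psmd4, Psmd11 and Psme3 were among them. These letters hold a CpG, and the median CpG ratio was 0.749 over members and 0.598 over all promoters. The shares of all promoters were not matched for CpG content or for an OCR. The antioxidant response element, searched as TGACNNNGC, was in 6 (14.3%), against 13.3%, and lay 9 bases upstream of the start in Psmb6 and 47 bases upstream in Psmb5. The interferon-stimulated response element, searched as GAAANNGAA, was in 6 (14.3%), against 8.35%, and in none of the windows of Psmb8, Psmb9 and Psmb10. The windows of Psmb8 and Psmb10 overlap their OCRs but do not hold the summits, so the sequence at those summits was not searched. The gamma-activated site, searched as TTCNNNGAA, was in 3 (7.14%), against 7.89%, and lay 97 bases upstream of the RefSeq start in Psmb8. That site is downstream of the GENCODE start used for the OCR of Psmb8.

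Of the general promoter letters, the GC box GGGCGG was in 23 member promoters (54.8%), against 48.0%, and CCAAT in 15 (35.7%), against 38.7%. TATAAA was in 4 (9.52%), against 12.9%, AAGATGGC of YY1 in 3 (7.14%), against 3.29%, and CGCATGCG of NRF1 in 2 (4.76%), against 2.66%. Matches of different motifs may share bases, and each motif was counted on its own. A match describes letters in the window and no binding was measured.

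Genes that work with the proteasome were open in nearly all cases. Of 31 related symbols, 30 were matched, and 29 of 30 had an OCR at the gene start in every library, against the 51.6% of all protein-coding genes. Their median percentile was 96.1 ± 0.567 (SD, n = 7), against 92.4 ± 1.27 for the 50 members. The exception, the proteasomal deubiquitinase Usp14, had an OCR of 76.6 at another transcript start. The highest were Uchl5, a deubiquitinase of the 19S particle, at 221 ± 38.6, Nfe2l2, which encodes the antioxidant response factor NRF2, at 211 ± 33.9, and Tapbp, which encodes tapasin of the peptide-loading complex, at 204 ± 38.4. The 5 genes of transcriptional control of the proteasome, including Nfe2l1 and Vcp, had a median percentile of 99.2 ± 0.286, and the 10 genes of antigen processing one of 94.9 ± 0.922. The lowest related gene with an OCR in every library was Nlrc5, an MHC class I transactivator, at 18.4 ± 3.77.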

How the data were processed

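The measurements were ATAC-seq OCRs of 7 HPC7 libraries. Reads had been trimmed by the authors (Cutadapt) and aligned by BWA-mem to mm10, and MACS2 had called OCRs per library. Their versions and options are not given in the sources used here. The deposited lists give for each OCR a fold enrichment (a ratio to the library background), a −log10 p and −log10 q, a score and the summit. The score deposited by the authors was not used. The fold enrichment and the −log10 q were taken as the authors deposited them, with no further normalization.

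OCRs overlapping the 1 kb on either side of a GENCODE M21 gene start by at least 1 bp were assigned to the gene, and the highest was kept. Percentiles were taken within a library. The start of the gene record is the outermost annotated one. 7 pairs of single genes were compared within libraries by an exact two-sided permutation test that flips the sign of each difference (128 patterns, smallest p = 0.0156), with Benjamini-Hochberg adjustment over the pairs. Class medians and counts received no test, and none is given for the pairs with Psmb11 and Psma8, which were at 0 throughout. Calculations used Python 3.11.15, numpy 2.4.6, pandas 2.3.3 and scipy 1.17.1, and were tested on simulated data. Precision rests on the SD over libraries, whose depth differed. A library with more weak OCRs gives its strong ones higher percentiles, which the alternative with equal numbers of OCRs addresses.

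The members, gene lists and pairs were chosen with earlier results of these data known. The genes named were those of the pairs, Psme4, Psme2b, Psmc3ip, the 5 highest and 5 lowest constitutive members, every member lacking an OCR in a library, and of the related genes the 3 highest and any lacking an OCR. Other genes were named after their values were seen. Alternatives were other windows (500 bp, 3 kb), any transcript start, a summit in the window, an overlap of 100 bp, a −log10 q of at least 5, an equal number of OCRs per library, log2(fold enrichment + 1), percentiles among protein-coding genes, and leaving out each library.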

Additional observations from a re-analysis of the deposited data

Results flagged for a closer look

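Within the 7 libraries, 48 sets of values were compared with Dixon's critical value and 4 held a library far from the others. Chance alone gives about 1 in 20 such sets. HPC7-1 stood apart at Psmb5, with a percentile of 89.8 against 82.5 to 84.5 in the others. The same value of 89.8 stood apart for Psmb5 minus Psmb11, because Psmb11 was at 0 in every library. HPC7-1 also stood apart at Psmb7, with a fold enrichment of 29.5 against 19.1 to 23.4. HPC7-8 stood apart at Psmc4, with a percentile of 98.2 against 97.0 to 97.2. HPC7-1 had the most OCRs (132852) and the lowest median fold enrichment (5.01). With an equal number of OCRs taken from each library, the percentile of Psmb5, given by Psmb5 minus Psmb11, was 80.9 ± 2.49 (SD, n = 7) over the libraries, against 84.5 ± 2.49 with all OCRs.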

How the results depend on the processing

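For the 5 pairs in which both genes had an OCR, 79 of 80 values under other settings kept their direction and side of the threshold. Of 56 counts, shares and medians, which have no test, 53 stayed within 1.5 times (counts and shares) or 1 SD (medians) of the value reported. With an equal number of OCRs per library (84593), the median percentile moved from 93.8 to 92.4 for the constitutive and from 91.9 to 90.1 for the immunoproteasome genes. With the summit required in the window, the immunoproteasome median moved to 85.4, and Psmb7 minus Psmb10 turned from -11.7 to 80.2, since the summit of Psmb10 lies outside the window. With a 3 kb window, Psmb7 minus Psmb10 was -7.05 ± 1.13, and Psmb5 minus Psmb11 became 0, since both genes then take the same OCR. Adjusting over the 5 pairs with an OCR at both genes, an alternative chosen after seeing the data, changed no call. The number of members with an OCR in every library was 41 to 47. Leaving out any library changed no call; the smallest p then possible is 0.0312, and Psmb5 minus Psmb8 lay between -1.13 and -0.493. The libraries form 1 group, so replicate numbers link no groups and no pairing between groups was possible. The gene pairs were compared within libraries. The depth limits weak OCRs: a start without an OCR had no signal that passed the authors' calling, and may still hold some open chromatin.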
